A study of Homo sapiens with 12 samples.

Results

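The response of control LNCaP cells to an androgen was described from 4 of the 12 RNA-seq samples of a study on Bag-1L, a protein form made from the BAG1 gene. LNCaP is an established human prostate cancer line that grows in response to androgen. The 4 samples were chosen by their labels, as those of the TALEN control line that had been starved of hormone and then given either vehicle or dihydrotestosterone (DHT). It is the vector control made beside a knockout line, in which a TALEN (an engineered nuclease) had been aimed at the start codon of Bag-1L, and whether it is a single clone was not given in the sources used here. Before treatment the cells spent 72 h in a medium whose serum had been stripped with charcoal and so held little steroid hormone. They then received 10 nM DHT, or ethanol (EtOH) as the vehicle, for 16 h. Each group had 2 samples, which the design describes as biological duplicates. The p-values below set each change against a spread estimated for each gene over all 12 samples, not over these 4 alone. The other 8 samples (the same line in full medium and the Bag-1L knockout line under all 3 conditions) entered the size factors, the count filter and the estimate of the spread, and the knockout line also a test of whether its response differed.

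DHT is the most potent natural androgen, the class of steroid hormones that drives growth and secretion in the prostate. In the luminal cells of this gland androgens raise the secretory programme, including the kallikrein proteases of seminal fluid, together with lipid synthesis and, in cancer cells, growth. They act mainly by changing transcription, and some genes are repressed by them.

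The counts of a sample over all genes summed to between 24834214 and 27258492, so that 3 counts, taken as the limit of detection, correspond to at most 0.121 CPM. The replicates lay farther apart in EtOH than with DHT, with a median absolute log2 difference of 0.238 against 0.171 over the 11365 tested genes that averaged 100 normalized counts or more. In EtOH replicate 2 a smaller share of the reads fell outside genes than in replicate 1 (3.55% against 4.58%) and a larger share was not unique (19.97% against 18.43%). All 10 markers of LNCaP and luminal prostate cells were tested. Their summed levels were 2200 TPM (transcript levels scaled by gene length and library size) in both EtOH samples and between 3799 and 3897 TPM with DHT. The markers did not move together: by the threshold given below 6 were raised and 2 lowered, and 4 of the 10 had a negative log2 fold change. The summed levels of the other markers were at most 0.734 TPM for basal epithelium (4 measured), 2.69 TPM for endothelium (3 measured) and 1.67 TPM for leukocytes (5 listed, of which PTPRC and CD3E did not reach the count filter). Stromal markers summed to 23.2 and 19.5 TPM in EtOH and 32.2 and 28.4 TPM with DHT, nearly all from COL1A1 (0.41, not past the threshold) and ACTA2 (raised, 0.91 on the log2 scale), while DCN, LUM and COL1A2 stayed under 10 normalized counts in every sample. In a bulk sample, more RNA per cell and more cells of a kind cannot be told apart.

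DHT changed 2001 of the 17535 genes tested, or 11.4%. Of these, 1059 were raised (6.04% of the genes tested) and 942 were lowered (5.37%). Raised and lowered mean a change of 1.5-fold or more at a DESeq2 adjusted p (Benjamini-Hochberg) of 0.05 or less. The size of the change was alike in both directions at the middle, with a median of 1.90-fold for the raised and for the lowered genes, but the rises reached farther. At least 8-fold rises were seen in 63 genes and at least 16-fold rises in 34, against 13 and 1 among the falls. The 2 DHT values lay above both EtOH values in 1056 of the raised genes and below them in 939 of the lowered genes, where 24.6% and 25.0% of all tested genes did so. The median log2 fold change of the tested genes was -0.02. In a fit of the 4 samples alone, 871 genes were raised and 508 lowered, so that 63.2% of the changed genes were raised. The response of the Bag-1L knockout line to DHT differed from that of the control line in 55 of 13478 genes (0.408%) by the test of the difference.

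**Figure D1:**
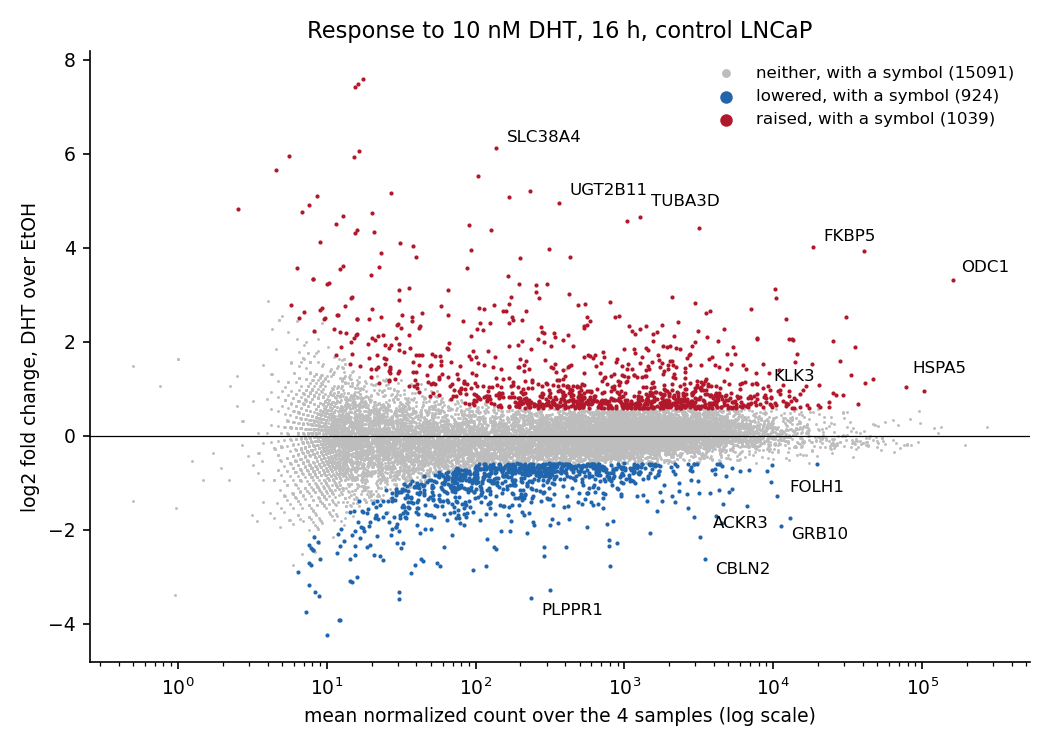
Each point is a tested gene with a symbol, placed by its mean normalized count over the 4 samples (x axis, log scale) and its log2 fold change with DHT over EtOH (y axis). Red genes were raised, blue genes lowered and grey genes neither; rises reach beyond 7 and falls just beyond -4, and ODC1 lies alone at the upper right as an abundant gene with a rise of 3.32.

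The level of a gene before DHT was set beside its call. Levels were scaled by length, as TPM computed from the deposited counts and the exon length of each gene. Among 1611 tested genes with at least 100 TPM in EtOH, 112 (6.95%) were raised and 35 (2.17%) lowered. Between 1 and 10 TPM the order was turned around, with 314 raised (5.52%) and 527 lowered (9.27%) of 5688 genes. Under 0.1 TPM 35 of 136 genes were raised and none was lowered, a class in which a gene could be tested only if it had counts in other samples. The raised genes together held 5.04% and 4.88% of all transcripts in the EtOH samples and 10.4% and 10.1% in the DHT samples. The lowered genes held 1.81% and 1.60% in EtOH and 0.826% and 0.774% with DHT.

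**Figure D2:**
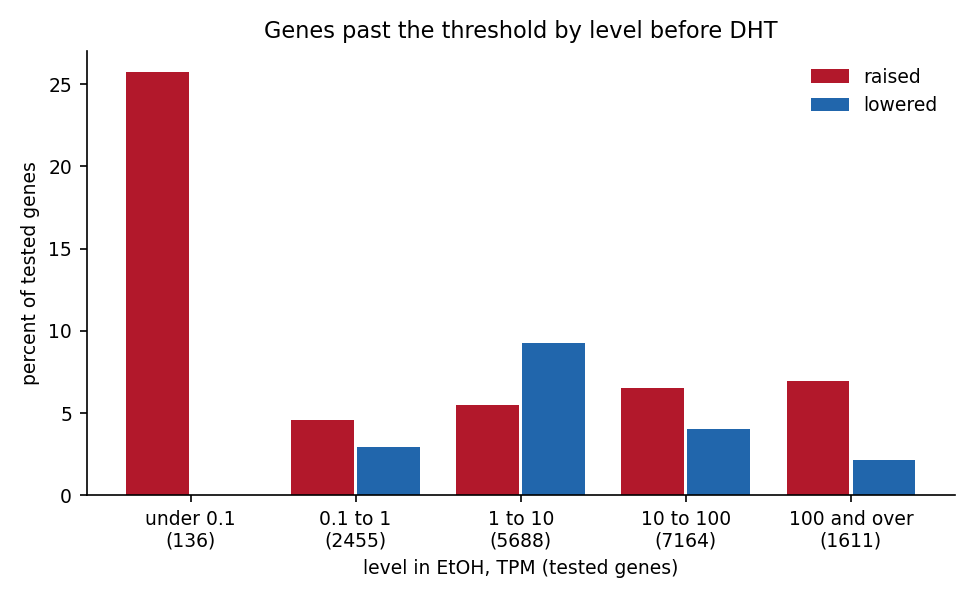
Bars give the percent of tested genes raised (red) or lowered (blue) by DHT in 5 classes of level in EtOH (x axis, in TPM, with the number of tested genes). Lowered genes are most frequent between 1 and 10 TPM at 9.27%, and raised genes outnumber lowered ones in both classes from 10 TPM upwards.

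By type, 925 of 13383 protein-coding genes were raised (6.91%) and 811 lowered (6.06%). Long noncoding RNA genes leaned the other way, with 56 raised (2.50%) and 93 lowered (4.15%) of 2239. Of 1268 pseudogenes 53 were raised (4.18%) and 16 lowered (1.26%). Reads shared with a parent gene are left out by the counting, so the counts of pseudogenes are uncertain.

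The classical targets of androgen were examined first. Of 42 genes that textbooks name as induced by androgen, all tested, 38 were raised (90.5%, beside 6.04% of all tested genes) and none was lowered, with a median log2 fold change of 1.75. These genes were listed because androgen is known to raise them, in LNCaP cells among others, so their direction is no independent evidence. FKBP5, an immunophilin that binds HSP90 in steroid receptor complexes, had 2247 and 2037 normalized counts in EtOH and 36045 and 33569 with DHT. This was a 16.2-fold rise (log2 fold change 4.02, standard error 0.10). KLK2, a kallikrein protease, had 4467 and 5907 normalized counts in EtOH and 21209 and 22103 with DHT (log2 fold change 2.06, standard error 0.12, DESeq2 adjusted p = 1.30e-58). KLK3, which encodes prostate-specific antigen, rose less, from 5354 and 7094 normalized counts to 10825 and 11769.7 (log2 fold change 0.86, standard error 0.13, DESeq2 adjusted p = 2.41e-09). In each of these genes the groups lay apart, by more than the distance between replicates.

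The genes of this class differed widely in the size of the rise. MAF, a leucine zipper transcription factor, went from 279 and 282 normalized counts to 5781 and 6288 (log2 fold change 4.43, standard error 0.13). SGK1, a kinase known from corticosteroid responses, went from 69.5 and 99.5 to 2050.4 and 1936 (log2 fold change 4.56, standard error 0.18). TMPRSS2, the serine protease whose promoter is fused to ERG in many prostate tumours, had 1156 and 1321 normalized counts in EtOH and 3157 and 3008 with DHT, a smaller rise (log2 fold change 1.32, standard error 0.12). Further members ran from ACSL3 at 2.52 and SLC45A3 at 2.92 down to KLK4 at 0.60 and UAP1 at 0.59 on the log2 scale. Values of STEAP2 (0.50), MPHOSPH9 (0.35), TSC22D3 (0.08) and MED28 (-0.26) did not pass. TSC22D3 is a well-known target of the glucocorticoid receptor.

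The promoter of KLK3 is shown because it is a textbook androgen-responsive promoter, in which the letters of an androgen response element can be seen. The letters searched were AGAACA and TGTTCT with any 3 bases between them, on both strands and with up to 2 mismatches, in windows from RefSeq (GRCh38.p14) that hold 250 bases before and 50 after each gene's start. The window shown lies at chr19:50854725-50854779 on the plus strand, its match begins 170 bases before the start and has 2 mismatches, and capitals mark the match.
KLK3: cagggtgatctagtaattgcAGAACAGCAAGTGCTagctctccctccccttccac

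A match of this kind was found in 392 of 27305 promoters (1.44%). It was present in 64 of 11779 promoters of tested genes (0.543%), 7 of 793 of raised genes (0.883%) and 8 of 667 of lowered genes (1.20%). KLK3 was the only match among the 29 classical targets with a promoter entry. The full letters without a mismatch were in the promoter of no tested gene. A match describes letters in a window and does not show binding, and distant enhancers lie outside these windows.

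Genes that were scarce without androgen had the largest folds. SLC38A4, a sodium-coupled amino acid transporter, had 3.81 and 3.98 normalized counts in EtOH and 314 and 227 with DHT (log2 fold change 6.12, standard error 0.55, DESeq2 adjusted p = 2.37e-26). CCDC141, a coiled-coil protein, went from 10.5 and 13.9 to 472 and 429.7 (log2 fold change 5.21, standard error 0.33). TUBA3D, an alpha-tubulin, went from 79.9 and 115 to 2365 and 2565 (log2 fold change 4.66, standard error 0.17), though 51.0% of its 50-base words also occur in other genes, so its counts are uncertain. TRGC1, a constant segment of the T-cell receptor gamma locus that prostate cells transcribe as TARP, went from 4.76 and 3.98 to 169 and 236 and overlaps other genes over 35.4% of its exon bases.

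Further large rises came in genes of varied function. PGC, a gastric aspartic protease precursor also made in prostate, had 24.7 and 50.7 normalized counts in EtOH and 575 and 601 with DHT (log2 fold change 3.97, standard error 0.22). SLC2A3, a glucose transporter, had 14.3 and 8.95 and 243 and 244 (log2 fold change 4.39, standard error 0.35). CTNNA2, a catenin of cell junctions, had at most 33.8 in EtOH and 363 and 378 with DHT (log2 fold change 3.79, standard error 0.26). The transcription factor RUNX1 (3.24), the membrane repair protein MYOF (3.22), the mitochondrial transhydrogenase NNT (3.21) and the small GTPase RHOU (3.13) complete the named rises on the log2 scale. RHOU alone among these 4 was abundant, at 2145 and 2039 normalized counts in EtOH and 17924 and 18704 with DHT.

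For 6 raised genes no read was counted in either EtOH sample, and for 32 raised genes at most 3 reads were counted in each. GPR65, a proton-sensing G protein-coupled receptor, had 0 in both EtOH samples and 27.3 and 42.4 normalized counts with DHT, at least 11.9-fold higher than the floor of 3 counts per library. PNLIP, pancreatic lipase, likewise had 0 in EtOH and 33.3 and 31.3 with DHT, at least 11.1-fold higher. These genes stayed scarce after DHT. No lowered gene was without reads in both DHT samples.

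The enzymes that glucuronidate steroids for excretion split within a single family. Of 7 UGT2B genes tested, 4 were raised and none was lowered. UGT2B11 had 23.8 and 21.9 normalized counts in EtOH and 675 and 737 with DHT (log2 fold change 4.95, standard error 0.25), UGT2B28 10.5 and 8.95 and 301 and 355 (log2 fold change 5.08, standard error 0.36), and UGT2B4 30.5 and 48.7 and 295 and 314 (log2 fold change 2.95, standard error 0.23). UGT2B10 passed narrowly at 1.25 (DESeq2 adjusted p = 0.0481). With at least 10 counts required in every sample 2 members were raised. UGT2B15 at -0.28 and UGT2B17 at -0.54, the members best known for clearing DHT, and UGT2B7 at -0.94 did not pass. These genes are close copies, and 36.1% of the 50-base words of UGT2B11 and 34.3% of those of UGT2B28 occur in other genes, so reads could be lost or split between them.

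Of 34 nuclear receptors tested, 2 were raised (5.88%, beside 6.04% of all tested genes) and 3 lowered (8.82%, beside 5.37%). Of the 34, 24 lay below 0, and the median log2 fold change was -0.26. Without EtOH replicate 1 or DHT replicate 2 there was 1 lowered, and without DHT replicate 1 there were 5. NR4A1, an immediate early orphan receptor, rose from 558 and 570.0 to 2846 and 2223 (log2 fold change 2.17, standard error 0.14), and the thyroid hormone receptor THRB rose by 0.86 on the log2 scale. The vitamin D receptor VDR fell by 0.71, and the orphan receptor NR2F1 by 0.82. Of 32 coregulators of steroid receptors only PIAS1, a SUMO ligase, was raised (1.14) and only NCOA7 was lowered (-0.91). Each direction thus held 3.1% of the coregulators, under the shares of all tested genes. PIAS1 overlaps other genes over 32.7% of its exon bases. Without EtOH replicate 1 there were 5 raised coregulators, and without DHT replicate 2 there were 4. BAG1 had 1701 and 2703 normalized counts in EtOH and 2199 and 2631 with DHT and did not pass (log2 fold change 0.13, DESeq2 adjusted p = 0.696).

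Of 17 luminal transcription factors 6 were raised (35.3%, beside 6.04% of all tested genes) and 1 lowered (5.88%, beside 5.37%). Across the list 9 lay above 0 and 8 below. The median log2 fold change was 0.19, and 0.03 without EtOH replicate 2. SPDEF, an ETS factor of secretory epithelia, had 2452 and 3572 normalized counts in EtOH and 12335 and 12802 with DHT (log2 fold change 2.06, standard error 0.15). CREB3L4, a membrane-bound factor of prostate secretory cells, had 3432 and 4290.2 and 8089.7 and 8820.2 (log2 fold change 1.13, standard error 0.12). KLF5 rose by 2.46, KLF4 by 1.69 and GRHL1 by 0.60 on the log2 scale, and GATA2, a zinc finger factor, fell by 0.60. HOXB13 (-0.52) and FOXA1 (0.28), also factors of prostate luminal cells, did not reach the fold change minimum.

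**Figure D3:**
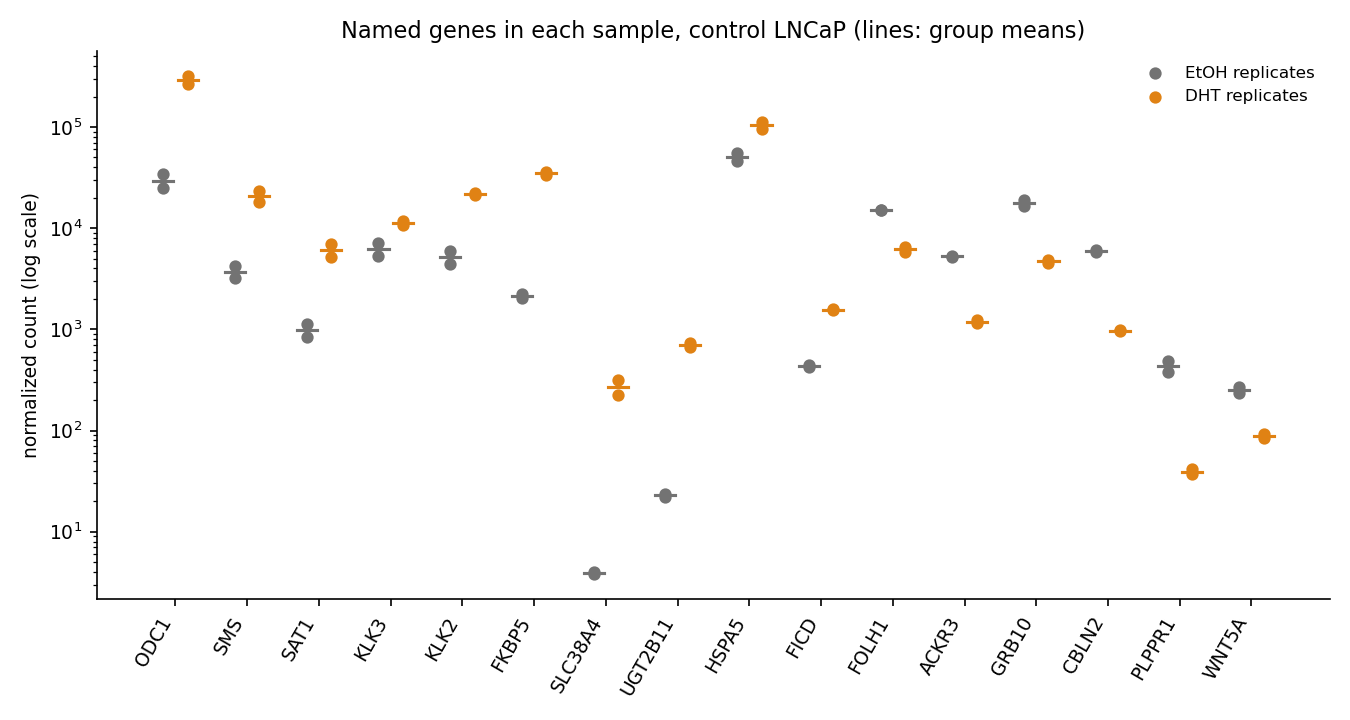
Points give the normalized count (y axis, log scale) of 16 named genes in each of the 2 EtOH samples (grey) and 2 DHT samples (orange), with a line at the group mean. The groups do not overlap in any of these genes, and the distance between replicates is small beside the change in genes such as FKBP5, UGT2B11 and PLPPR1.

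The largest single change in abundance was in polyamine synthesis. Polyamines are small cations that the prostate makes and secretes in large amounts. ODC1 (ENSG00000115758, chromosome 2, 10580094 to 10588453, minus strand, GRCh37) encodes ornithine decarboxylase, the rate-limiting enzyme. It had 25033 and 34003 normalized counts in EtOH and 266546 and 321554 with DHT, a 9.96-fold rise (log2 fold change 3.32, standard error 0.14, DESeq2 adjusted p = 6.99e-119). Its level went from 1228 to 11371 TPM, so that it held 1.08% and 1.19% of all transcripts in the DHT samples against 0.112% and 0.133% in EtOH. With this it entered the 10 genes of highest level, the others being mitochondrially encoded genes, the ribosomal protein gene RPS12 and a short pseudogene, CTD-2328D6.1, at similar levels in both conditions.

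The step from spermidine to spermine moved with it. Spermine synthase, SMS, had 3247 and 4206 normalized counts in EtOH and 18311 and 23201 with DHT (log2 fold change 2.48, standard error 0.14). Its partner spermidine synthase, SRM, had 3789 and 4632 and 6559 and 6373, a smaller rise (log2 fold change 0.62, standard error 0.13). SAT1, which acetylates polyamines for export or breakdown, had 843 and 1128 and 5161 and 6976 (log2 fold change 2.62, standard error 0.16), and the spermine oxidase SMOX rose by 0.86 on the log2 scale. Enzymes of synthesis and of breakdown were both among the raised genes. Of 17 polyamine genes tested, 5 were raised (29.4%, beside 6.04% of all tested genes) and none was lowered. Their median log2 fold change was 0.11, and 6 of the 17 lay below 0. AMD1, which supplies the aminopropyl donor, was at 0.39, and the antizymes OAZ1 (0.11) and OAZ2 (0.14) were near 0.

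Genes of protein folding in the endoplasmic reticulum (ER) formed the list with the largest share raised after the classical targets. Secreted proteins fold in the ER with the help of chaperones and disulphide isomerases, and when the load grows the unfolded protein response raises these helpers. Of 34 genes tested, 25 were raised (73.5%, beside 6.04% of all tested genes), none was lowered and 33 had a log2 fold change above 0, with a median of 0.90. Together they held 0.802% and 0.800% of all transcripts in EtOH and 1.33% and 1.32% with DHT.

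The regulatory letters of this list are shown because factors of the unfolded protein response, ATF6 and XBP1, read known elements in the promoters of ER chaperones. The ER stress response element was searched as CCAAT and CCACG with any 9 bases between them and its shorter second form as ATTGG and CCACG with any 1 base between them, on both strands and without mismatches, in the RefSeq windows described above (GRCh38.p14), and no promoter held both. Each sequence below is written along its gene, with the match in capitals and 20 bases on either side. A match on the opposite strand, as in CALR, CRELD2, HYOU1 and SDF2L1, reads as the reverse complement. The windows lie at chr9:125241371-125241429 (HSPA5, minus strand), chr12:103930196-103930254 (HSP90B1, plus), chr19:12938364-12938422 (CALR, plus), chr12:108515103-108515161 (FICD, plus), chr22:49918534-49918592 (CRELD2, plus), chr22:28800583-28800641 (XBP1, minus), chr16:56932005-56932055 (HERPUD1, plus), chr11:119057360-119057410 (HYOU1, minus) and chr22:21642094-21642144 (SDF2L1, plus). The last 3 hold the second form.
HSPA5: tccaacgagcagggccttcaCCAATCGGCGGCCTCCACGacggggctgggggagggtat
HSP90B1: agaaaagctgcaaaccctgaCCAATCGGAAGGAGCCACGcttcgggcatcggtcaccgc
CALR: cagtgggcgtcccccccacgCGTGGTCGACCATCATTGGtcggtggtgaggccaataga
FICD: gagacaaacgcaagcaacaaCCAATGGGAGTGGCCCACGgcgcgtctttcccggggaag
CRELD2: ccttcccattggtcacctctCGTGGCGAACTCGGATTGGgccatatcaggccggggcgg
XBP1: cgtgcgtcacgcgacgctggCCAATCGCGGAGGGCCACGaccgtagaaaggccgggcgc
HERPUD1: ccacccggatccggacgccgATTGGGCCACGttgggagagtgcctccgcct
HYOU1: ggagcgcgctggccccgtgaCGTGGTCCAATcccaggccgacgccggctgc
SDF2L1: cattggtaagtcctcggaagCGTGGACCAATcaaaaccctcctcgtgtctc

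All 34 tested ER genes had a promoter entry, and 8 of them (23.5%) held the first form, against 22 of 27305 promoters in all (0.0806%) and 15 of 11779 promoters of tested genes (0.127%). Of those 15 genes 8 were raised (CALR, CRELD2, ERO1B, FICD, HSP90B1, HSPA5, SERP1 and TRIM5), none was lowered and 7 were neither. XBP1 and CANX hold the letters and did not pass, with log2 fold changes of -0.24 and 0.26. The second form was in 11 promoters of tested genes, 3 of them raised: HERPUD1, HYOU1 and SDF2L1. No promoter of the 667 lowered genes held either form. The list was drawn up from knowledge of the unfolded protein response, whose known targets carry these letters.

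HSPA5, PDIA4 and CALR, abundant members of this list, were among the 10 largest gains in TPM of all genes past the threshold. HSPA5, the HSP70 of the ER also known as BiP, had 46509 and 55619 normalized counts in EtOH and 95879 and 112712 with DHT (log2 fold change 1.03, standard error 0.11, DESeq2 adjusted p = 1.57e-17). HSP90B1, the HSP90 of the ER, had 63544 and 76969 and 121359.9 and 149582 (log2 fold change 0.95, standard error 0.13). PDIA4, a disulphide isomerase, had 24676 and 27188 and 56269 and 56419 (log2 fold change 1.12, standard error 0.09), and its level rose from 1089 to 2194 TPM. None of these groups overlapped.

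The largest folds were in scarcer regulators. FICD, which switches BiP off and on by attaching and removing AMP, had 445 and 427 normalized counts in EtOH and 1542 and 1582 with DHT (log2 fold change 1.84, standard error 0.12). ERN1, the ER stress sensor IRE1, had 713 and 521 and 2250.3 and 1725 (log2 fold change 1.69, standard error 0.17). DNAJB9, a co-chaperone of BiP that restrains IRE1, had 1043 and 1082 and 2571 and 3109 (log2 fold change 1.42, standard error 0.12). Other raised members, which act in the degradation of misfolded ER proteins, were HERPUD1 (1.01), EDEM3 (1.09), EDEM1 (0.89) and SYVN1 (0.76) on the log2 scale. The sensor ATF6 was at 0.24 and XBP1 at -0.24, with 9065 and 10999 normalized counts in EtOH and 7824 and 9108 with DHT, and neither passed. The counts cover all XBP1 transcripts and do not separate its spliced form.

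Of the genes that the ATF4 branch of stress signalling drives, 4 of 32 were raised (12.5%, beside 6.04% of all tested genes) and none lowered. Without EtOH replicate 1 or DHT replicate 2 there were 2 raised. VLDLR, a lipoprotein receptor, rose by 1.68, CHAC1 by 0.70, DDIT3, which encodes CHOP, by 0.68 and WARS1, a tRNA synthetase, by 0.60 on the log2 scale. DDIT3 overlaps another gene over 39.6% of its exon bases. Of 36 genes of the HSP90 and HSP70 machinery and its co-chaperones, 4 were raised (11.1%) and none lowered: FKBP5, HSPA13 (0.85), HSPH1 (0.69) and BAG3 (0.70).

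Downstream of folding, 22 of 49 genes of secretory transport were raised (44.9%), none was lowered and the median log2 fold change was 0.56. SEC24D, a cargo adaptor of COPII vesicles, had 1559 and 1179.7 normalized counts in EtOH and 4053 and 3389 with DHT (log2 fold change 1.44, standard error 0.14). SEC23B, from the same coat, had 5628 and 5269 and 10238 and 9806 (log2 fold change 0.88, standard error 0.09). The translocon subunit SEC61A1 had 15005 and 15844 and 24892 and 23917 (log2 fold change 0.66, standard error 0.08), and the signal recognition receptor SRPRA rose by 0.87. In SEC61G, at 2733 and 4317 and 4252 and 6503, the replicates of the groups overlapped although it passed. In edgeR 19 members were raised.

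Sugar nucleotide and glycosylation genes were raised in 10 of 41 cases (24.4%, beside 6.04% of all tested genes) and lowered in 3 (7.32%, beside 5.37%). ST6GALNAC1, a sialyltransferase that makes the sialyl-Tn antigen, had 1076 and 1115 normalized counts in EtOH and 5301 and 5006 with DHT (log2 fold change 2.23, standard error 0.09). GFPT1, the entry enzyme of the hexosamine pathway, had 3385 and 2791 and 5059 and 5143 (log2 fold change 0.72, standard error 0.12), and PGM3 (0.75) and UAP1 (0.59), the later enzymes of the same pathway, were also raised. The branching enzyme MGAT4A fell by 0.95, the fucosyltransferase FUT8 by 0.69 and GALNT3 by 0.67 on the log2 scale.

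Of 26 genes of cholesterol synthesis and uptake 15 were raised (57.7%) and none was lowered, with 3 below 0 and a median log2 fold change of 0.65. HMGCS1, which makes HMG-CoA at the head of the pathway, had 7239.9 and 6898 normalized counts in EtOH and 20859 and 21371 with DHT (log2 fold change 1.58, standard error 0.10, DESeq2 adjusted p = 3.45e-54), and 37.7% of its exon bases overlap another gene. STARD4, a carrier of sterols between membranes, had 1261 and 1226 and 2787 and 3152 (log2 fold change 1.26, standard error 0.13). IDI1, the isomerase of isoprenoid units, had 3845 and 4242 and 6216 and 7175 (log2 fold change 0.73, standard error 0.11), and MSMO1, a sterol oxidase, 2979 and 3289 and 4956 and 5693 (log2 fold change 0.76, standard error 0.11). The groups did not overlap in these genes.

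The regulators of the pathway differed from each other. SCAP, which carries the sterol-sensing transcription factors to the Golgi, had 2799 and 3510.4 normalized counts in EtOH and 5689 and 5728 with DHT (log2 fold change 0.86, standard error 0.12). SREBF2, the factor itself, was at 0.35 and INSIG1, which holds it back, at 0.39, and neither reached the fold change minimum. Letters of a sterol regulatory element core, TCAC and CCAC with any 1 base between them on either strand, were in 1 of 19 promoters of this list with an entry (SREBF2), beside 125 of 11779 promoters of tested genes (1.06%). Mismatched forms and sites outside the windows were not searched, so the count does not show how many of these genes have a sterol element.

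**Figure D4:**
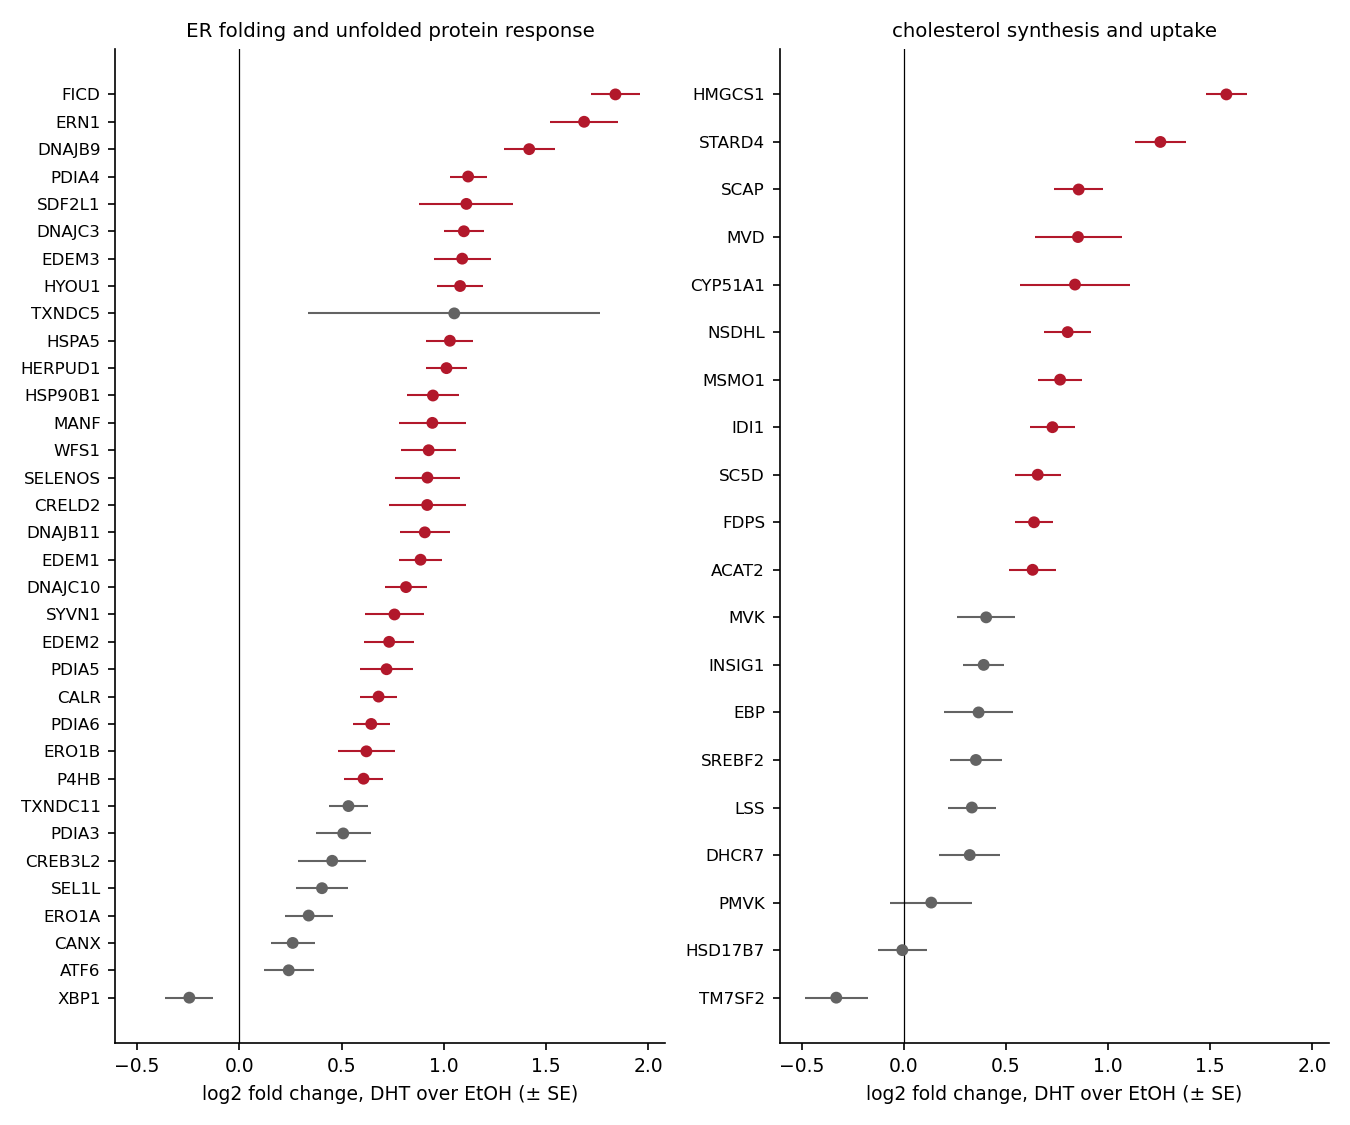
Points give the log2 fold change with DHT over EtOH (x axis) and bars its standard error for the 34 tested ER genes (left) and 20 of the 26 tested cholesterol genes (right), in red where raised and grey where neither. All ER genes but XBP1 lie to the right of 0, and the widest bar belongs to the scarce gene TXNDC5.

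Fatty acid synthesis and activation showed 9 raised (37.5%, beside 6.04% of all tested genes) and 3 lowered (12.5%, beside 5.37%) of 24 genes. FASN, fatty acid synthase, had 26506 and 29939.9 normalized counts in EtOH and 70835 and 58864 with DHT (log2 fold change 1.20, standard error 0.14). ELOVL2, an elongase of polyunsaturated chains, had 761 and 706 and 5518 and 4878 (log2 fold change 2.82, standard error 0.12), and ACSL3, which activates fatty acids, 9374 and 8764 and 51522 and 52623 (log2 fold change 2.52, standard error 0.10). The desaturases FADS1 (1.73), FADS2 (1.29) and FADS3 (1.32) rose alike. MLXIPL, which encodes the glucose sensor ChREBP, fell by 0.82, ACACB by 0.70 and SCD5 by 0.67 on the log2 scale.

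Of 27 genes of fatty acid oxidation 4 were raised (14.8%, beside 6.04% of all tested genes) and 1 lowered (3.70%, beside 5.37%). Of all 27, 17 lay below 0 and the median log2 fold change was -0.11. ACADL, an acyl-CoA dehydrogenase of long chains, rose from 8.56 and 5.97 to 63.6 and 65.6 normalized counts. ECI2 rose by 1.21, ACAA1 by 0.78 and ACOX3 by 0.73 on the log2 scale. Of 46 glycolysis and citrate cycle genes 4 were raised (8.70%) and none lowered: the glucose transporters SLC2A3 and SLC2A1 (0.82), the hexokinase HK1 (0.71) and PFKFB2 (0.90), which sets the level of the activator of glycolysis.

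Androgen metabolism was mixed, with 3 of 19 genes raised (15.8%, beside 6.04% of all tested genes) and 3 lowered (15.8%, beside 5.37%). HSD3B1, which acts early in the making of androgens, fell from 102 and 115 normalized counts to 45.4 and 36.3 (log2 fold change -1.41, standard error 0.31), and RDH16 fell from 187 and 168 to 94.9 and 81.7. HSD17B4 rose by 0.63 and HSD17B11 by 0.74 on the log2 scale. CYP11A1, the side-chain cleavage enzyme, had the largest rise of the list (2.77) but stayed scarce. It had 2.85 and 3.98 normalized counts in EtOH and 24.2 and 22.2 with DHT.

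PLPPR1, a phospholipid phosphatase-related protein of neurites, had 485 and 380.0 normalized counts in EtOH and 41.4 and 37.3 with DHT (log2 fold change -3.46, standard error 0.23, DESeq2 adjusted p = 4.27e-47). AMIGO2, a neuronal adhesion protein, had 198 and 211 and 33.3 and 26.2 (log2 fold change -2.78, standard error 0.29). CBLN2, a synapse organizer, was abundant before DHT, at 5829 and 6137, and had 954 and 991 with it (log2 fold change -2.62, standard error 0.09). CAMK2N1, an inhibitor of the kinase CaMKII, had 1390.3 and 1418 and 199 and 215 (log2 fold change -2.76, standard error 0.14). The replicates differed little beside these changes.

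Enzymes and secreted proteins were among the other large falls. DDC, which makes dopamine and serotonin, had 2232 and 2596 normalized counts in EtOH and 539 and 605 with DHT (log2 fold change -2.08, standard error 0.12), and BCHE, butyrylcholinesterase, 717 and 639.6 and 110.0 and 154 (log2 fold change -2.36, standard error 0.17). ACP3, prostatic acid phosphatase, had 954 and 825 and 244 and 222 (log2 fold change -1.93, standard error 0.15). GASK1B (-3.29), MAB21L4 (-2.37), GLYATL3 (-2.36), CCDC80 (-2.34), LRRN1 (-2.21), PALMD (-2.19), MCTP1 (-2.06) and the kinase BMX (-2.02) fell by at least 4-fold. SPTLC3 (-2.27) and DEGS2 (-2.03), both enzymes of sphingolipid synthesis, fell as well. TGM3, at -2.56, overlaps another gene over 94.8% of its exon bases, so its fall is uncertain.

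The largest losses in absolute level were only partly the same genes, with ACKR3 and CBLN2 in both sets. ACKR3, an atypical chemokine receptor, had 5221 and 5297 normalized counts in EtOH and 1225 and 1147 with DHT (log2 fold change -2.15, standard error 0.10), and its level fell from 353 to 73.7 TPM. FOLH1, which encodes prostate-specific membrane antigen, had 15068 and 15086 and 5879 and 6444 (log2 fold change -1.29, standard error 0.09), a level of 393 and then 148 TPM. SESN3, a sestrin that restrains mTORC1, had 23770.3 and 16354 and 6328 and 5557 (log2 fold change -1.76, standard error 0.16). The small nuclear protein PRAC1 (-0.91), the cytoskeletal adducin ADD3 (-1.49) and the Golgi protein GOLIM4 (-1.44) were also among the 10 largest losses in TPM, PRAC1 at 243 TPM close to FOLH1 at 245. The largest loss, in ACKR3, was 279 TPM, whereas PDIA4, second to ODC1 among the gains, added 1105 TPM.

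Keratins of luminal cells gained much in level. KRT8 had 12504 and 17607 normalized counts in EtOH and 51854 and 58988 with DHT (log2 fold change 1.88, standard error 0.15), from 301 to 1031 TPM. KRT18, its partner in filaments, had 3922 and 4871 and 12336 and 13166 (log2 fold change 1.54, standard error 0.12).

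Insulin and IGF signalling was split, with 6 of 27 genes raised (22.2%, beside 6.04% of all tested genes) and 5 lowered (18.5%, beside 5.37%). On the receptor side, IGF1R had 829.8 and 687 normalized counts in EtOH and 3239 and 2511 with DHT (log2 fold change 1.92, standard error 0.14), and the adaptor IRS2 145 and 114 and 569 and 539 (log2 fold change 2.10, standard error 0.18). GRB10, an adaptor that inhibits both receptors, had 19095 and 16532 and 4824 and 4560.4 (log2 fold change -1.92, standard error 0.10). INPP4B, a phosphatase that opposes PI3K signalling, rose by 2.80, while the PI3K subunits PIK3R1 and PIK3R3 fell by 0.64 and 0.69 and the PI3K inhibitor PIK3IP1 by 1.52 on the log2 scale. IGF1, at 1.14, overlaps another gene over 82.5% of its exon bases.

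Wnt signalling leaned down, with 10 of 36 genes lowered (27.8%, beside 5.37% of all tested genes) and 2 raised, and a median log2 fold change of -0.37. WNT5A, a ligand of the noncanonical pathway, had 266 and 233 normalized counts in EtOH and 91.9 and 83.7 with DHT (log2 fold change -1.51, standard error 0.21). The secretion factor WLS fell by 0.70, and the receptor FZD4 by 0.59. Feedback inhibitors of the pathway fell too, namely NKD1 by 1.06, NKD2 by 0.80 and RNF43 by 1.81 on the log2 scale, the last with 69.05% of its exon bases shared with another gene. The raised members were receptors, FZD5 with 532 and 419.8 and 3910.1 and 3478 (log2 fold change 2.96, standard error 0.13) and FZD8 with 3.02. In a fit of the 4 samples alone 5 members were lowered, and without DHT replicate 2 there were 6.

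Axon guidance and neuronal adhesion genes went both ways, with 10 of 60 lowered (16.7%, beside 5.37% of all tested genes) and 6 raised (10.0%, beside 6.04%). Besides PLPPR1 and AMIGO2, NCAM2, a neural adhesion molecule, had 3156 and 2740.4 normalized counts in EtOH and 1185 and 1236 with DHT (log2 fold change -1.28, standard error 0.12), and the guidance genes SLIT3 (-1.98) and ROBO1 (-0.73) fell. EPHA7, an ephrin receptor, rose from 92.3 and 90.5 to 465 and 448 (log2 fold change 2.32, standard error 0.19), as did SEMA6D by 1.67 and NRP1 by 0.69 on the log2 scale. In a fit of the 4 samples alone and without DHT replicate 2, 6 members were lowered in each case. Of 10 neuroendocrine markers tested only DDC was lowered, and 2 were lowered in edgeR.

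Lists of early and feedback signalling held both raised and lowered genes, beside 6.04% raised and 5.37% lowered of all tested genes. Of 19 immediate early genes 7 were raised (36.8%) and 2 lowered (10.5%), with FOSL2 (1.49), CCN1 (1.40), ATF3 (1.15) and FOS (1.10) among the former. Of 36 TGF-beta and BMP genes 7 were raised (19.4%) and 4 lowered (11.1%). ID1, an inhibitor of helix-loop-helix factors, had 165 and 186 normalized counts in EtOH and 726 and 1047 with DHT (log2 fold change 2.34, standard error 0.19), and ID2 1072 and 1149.9 and 3072 and 3223, a 2.83-fold rise. PMEPA1, which dampens TGF-beta signalling, rose by 2.02. SMAD3 fell by 0.88, BAMBI by 0.89 and INHBB by 1.68 on the log2 scale. MAPK phosphatase and sprouty genes were raised in 5 of 15 cases (33.3%), led by SPRY2 (1.08), and lowered in 2 (13.3%), with 2 raised when EtOH replicate 2 or DHT replicate 1 was left out. SPRY1 fell by 1.04 and DUSP5 by 0.86.

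Cell cycle genes stayed close to the background or under it. Of 53 genes of G1/S and DNA replication 3 were raised (5.66%) and 2 lowered (3.77%): CDK6 (1.05), CDC6 (0.61) and the inhibitor CDKN1A (0.83) rose, and MCM3 (-0.60) and E2F7 (-0.65) fell. None of 46 genes of G2/M and mitosis passed in DESeq2 or in edgeR. At an unadjusted p under 0.05 in DESeq2, 1 was higher and 13 were lower.

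Housekeeping complexes passed rarely. None of 84 cytosolic ribosomal protein genes passed in DESeq2 or edgeR, and at an unadjusted DESeq2 p under 0.05 there was 1 higher and 5 lower. Their median log2 fold change was -0.15, but 0.12 without EtOH replicate 2, in which they held 14.1% of all transcripts against 11.2% in replicate 1 and 9.99% and 11.3% with DHT. None of 38 complex I genes passed in either tool, with 0 higher and 1 lower at an unadjusted DESeq2 p under 0.05. Their median was likewise turned from -0.09 to 0.24 without EtOH replicate 2. Of 35 proteasome genes 2 were raised (5.71%, beside 6.04% of all tested genes) and none lowered. Their median log2 fold change was 0.30, and 0.46 without EtOH replicate 2. At an unadjusted DESeq2 p under 0.05, 18 of them were higher and 0 lower, and 33 had a log2 fold change above 0.

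Families defined by name alone lay on either side of the background of 6.04% raised and 5.37% lowered. Of 234 solute carriers 18 were raised (7.69%) and 19 lowered (8.12%). Of 442 zinc finger genes named ZNF, only 8 were raised (1.81%) and 7 lowered (1.58%). Potassium channels were lowered in 8 of 41 cases (19.5%) and raised in 3, and collagens lowered in 6 of 29 (20.7%) and raised in none. Within transporters the direction was split by gene: the drug efflux pumps ABCC4 (1.89) and ABCC1 (1.63) rose, whereas the cholesterol exporter ABCA1 (-1.99) and ABCG2 (-1.27) fell. In a fit of the 4 samples alone 4 potassium channels and 3 collagens were lowered.

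**Figure D5:**
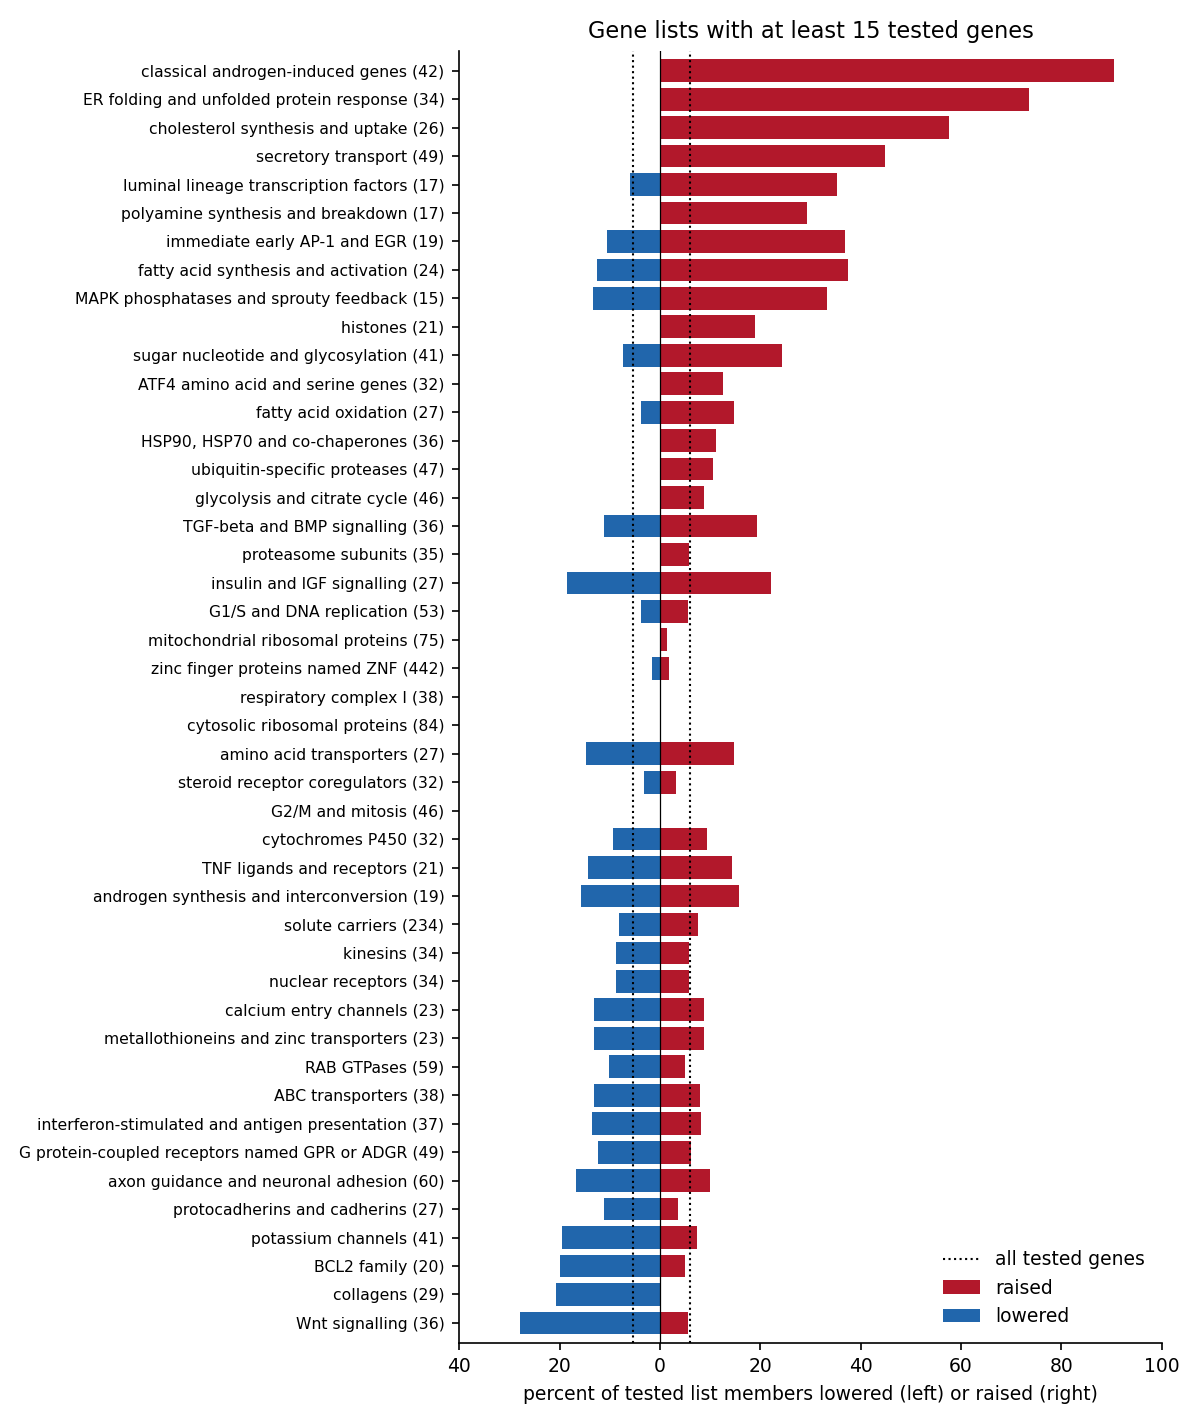
Bars give the percent of tested members raised (red, to the right) and lowered (blue, to the left) for each list of at least 15 tested genes, with the number tested in brackets and dotted lines at 6.04% and 5.37%, the shares of all tested genes. Classical targets, ER folding, cholesterol and secretory transport reach farthest right without a lowered member, and Wnt signalling reaches farthest left.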

How the data were processed

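Poly(A) RNA of 12 samples (6 groups of 2) had been made into stranded TruSeq libraries. The authors deposited raw read counts per Ensembl gene for each sample, without normalization or pooling, and the submitters' processing notes name CASAVA (version 1.7), TopHat2 (2.0.11) and HTSeq (0.5.3p3). The study's methods give GRCh37 as the genome. The Ensembl release and the strand option of HTSeq were not given in the sources used here, so overlapping and antisense genes are uncertain. Reads that fit several places or genes are not counted by HTSeq. Each file held 63677 gene identifiers, of which 55665 were in the GENCODE annotation on GRCh37 that gave symbols, positions and exon lengths, and 5 tallies of uncounted reads, which were left out of all totals.

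Following the study's choice of tool, DESeq2 (1.42.0, R 4.3.3) was fitted once to all 12 samples with a coefficient per group, median-of-ratios size factors, genes with at least 10 counts in sum (26156) and unshrunken Wald tests of control DHT against control EtOH. A gene passed at a Benjamini-Hochberg adjusted p of at most 0.05 and a fold change of at least 1.5. All adjusted p-values named DESeq2 come from this fit and cover the 17535 genes given one. TPM was computed from the counts and the union of exons per gene. The floor of 3 counts covers counting error only. Standard errors come from the DESeq2 fit and include its estimate of the spread between samples.

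Named genes were the 20 largest rises and falls with a symbol, 100 or more normalized counts on average and no overlap of the groups, the 10 largest gains and losses in TPM, the 10 highest levels per group, up to 5 members per list with the largest passing change, and BAG1, KLK2, KLK3, FKBP5 and TMPRSS2. Further list members were named after their values were seen. The members and gene lists were chosen with earlier results of these data known, from textbook knowledge or symbol patterns, and no set test was run. Some genes that the rule covers are counted in their lists and not reported here by name, nor is 1 gene list. Promoters were matched by symbol to RefSeq (GRCh38.p14), and none of its coordinates was mixed with GRCh37.

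Alternatives were edgeR's quasi-likelihood test (4.0.16) with TMM, DESeq2 with TMM size factors, no count filter, at least 10 counts in every sample, a fit of the 4 samples alone, a replicate block in either fit, and each of the 4 samples left out in turn.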

Additional observations from a re-analysis of the deposited data

Results flagged for a closer look

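The response of the control line was set against that of the Bag-1L knockout line (KO) by an interaction contrast in the same DESeq2 fit. It called 55 of 13478 genes (0.408%), and 24 in edgeR. Among the 239 genes that the naming rule covers and that could be reported, 22 differed between the lines, and these are given as the log2 response in KO minus that in control, so that a negative value after a rise means a smaller rise in KO. Most of these genes were named for the size of their change in control, and the difference uses the same control values, so the choice favours smaller changes in KO. No cause was tested.

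Of the large rises in control, smaller ones were measured in KO for UGT2B11 (-2.52), UGT2B28 (-1.98) and RUNX1 (-1.37). Smaller in KO were also the rises of ID1 (-1.35), ID2 (-1.35) and KLF4 (-1.21). The same held for the polyamine acetyltransferase SAT1 (-0.96), the desaturases FADS1 (-0.86) and FADS3 (-0.86) and the histone gene H2BC21 (-0.59). Larger in KO were the rises of TMPRSS2 (1.39), the cold-sensing channel TRPM8 (1.21) and the elongase ELOVL2 (0.99). These values compare responses, not levels with DHT, and levels in EtOH could differ between the lines. Mean normalized counts of ELOVL2 went from 327 to 4607 in KO and from 734 to 5198 in control. Those of TMPRSS2 went from 830 to 5399 and from 1239 to 3082, and of TRPM8 from 260 to 1244 and from 266 to 551. UGT2B11 went from 74.3 to 398 in KO and from 22.8 to 706 in control.

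Of the genes lowered in control, 9 had a positive difference. These were RDH16 (1.23), BCHE (1.06), ACKR3 (0.87), SESN3 (0.85), CAMK2N1 (0.80), the amino acid transporter SLC16A10 (0.73), CBLN2 (0.70), DDC (0.68) and GRB10 (0.61). In 8 of them KO still had a negative log2 fold change, and in RDH16 it was 0.22.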

How the results depend on the processing

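With 2 samples per group the estimate of the spread leans on the other groups. In a fit of the 4 samples alone the lowered genes came to 508, and to 610 with the replicate block added, against 942. The fit of the 4 samples alone lowered 5 Wnt genes (main fit 10 of 36), 6 axon guidance (10 of 60) and 1 interferon (5 of 37). It lowered 4 potassium channels (8 of 41), 3 GPR or ADGR receptors (6 of 49, 12.2%) and 2 RAB genes (6 of 59, 10.2%). It also lowered 3 collagens (6 of 29) and 2 ABC transporters (5 of 38, 13.2%), where the main fit lowered 5.37% of all tested genes. Of 47 ubiquitin-specific protease genes the main fit raised 5 (10.6%, beside 6.04%). With the block added, the fit of the 4 samples lowered 5 Wnt, 2 interferon, 12 solute carrier (main fit 19 of 234) and 3 ABC transporter genes. A minimum of 10 counts in every sample left 3 ABC transporter genes lowered. The difference between the lines was 24 genes in edgeR, against 55. The cause was not tested. Leaving out each sample in turn, where the lone sample of a group is assumed to vary like the others, gave ranges of 2 to 5 MAPK phosphatase genes raised, 6 to 9 Wnt, 6 to 11 axon guidance, 2 to 3 interferon, 12 to 18 solute carrier, 5 to 7 potassium channel, 3 to 8 GPR or ADGR receptor and 3 to 7 ABC transporter genes lowered, and 4 to 16 ZNF genes and 3 to 6 ubiquitin-specific protease genes raised.

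The count of genes past the threshold stayed within 1.5 times the main value in every alternative, from 1379 to 2296, and the raised genes numbered 24 to 26 in ER folding, 12 to 17 in cholesterol and 35 to 39 in the classical targets. The groups share replicate numbers, but no label ties a number to a batch or day. The replicate 2 minus replicate 1 differences in EtOH and DHT correlated at 0.69 across genes. The replicate block in the fit of all 12 samples gave 1942 genes past the threshold, 1044 raised and 898 lowered, and 49 genes that differed between the lines. Of 250 named genes, 39 no longer passed in the fit of the 4 samples alone, 29 with the block added to it and 27 to 32 when a sample was left out, and none that passed reversed its direction.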

Other observations

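Some gene groups outside the comparisons above are given here, beside 6.04% raised and 5.37% lowered of all tested genes. Interferon-stimulated and antigen presentation genes were raised in 3 of 37 cases (8.11%) and lowered in 5 (13.5%). B2M, the light chain of class I antigen, had 4757 and 5790.2 normalized counts in EtOH and 11927 and 14699 with DHT (log2 fold change 1.34, standard error 0.13), while the class I heavy chains HLA-B (0.02) and HLA-C (0.20) did not pass. The RNA sensors and effectors IFIH1 (-1.12), IFIT1 (-1.43) and OAS3 (-0.66) fell, from low counts.

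In the BCL2 family 1 of 20 genes was raised and 4 lowered. BCL2L1, which encodes the survival protein BCL-XL, had 2401 and 2382 normalized counts in EtOH and 4947 and 4488 with DHT (log2 fold change 0.98, standard error 0.10), with 41.3% of its exon bases shared with another gene. BCL2 fell from 138 and 127 to 63.6 and 81.7 (log2 fold change -0.87, standard error 0.23), and the death-promoting BOK fell by 0.80. Among zinc genes the vesicle transporter SLC30A4 had 7835 and 6544 and 3432 and 3171 (log2 fold change -1.12, standard error 0.12), whereas SLC39A7, which releases zinc from the ER, had 5773 and 7103 and 12284 and 12929 (log2 fold change 0.97, standard error 0.12). Of 23 calcium entry genes 2 were raised (8.70%, beside 6.04% of all tested genes) and 3 lowered (13.0%, beside 5.37%). There was 1 lowered without EtOH replicate 1 or DHT replicate 2 and 7 without EtOH replicate 2. The calcium pump ATP2B1 was at -1.14. Of 21 histone genes 4 were raised (19.0%) and none lowered, led by H1-4 (2.44). These libraries were selected for poly(A), and most histone transcripts carry no poly(A) tail.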
